A study of Mus musculus with 6 samples.

Results

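TGF-beta and activin signalling was examined through 10 genes of the ligand, receptor and binding protein classes in bulk RNA-seq of the mouse palate at embryonic day 14.0. They were the TGF-beta ligands Tgfb1, Tgfb2 and Tgfb3, the activin subunits Inhba and Inhbb, the receptors Tgfbr1, Tgfbr2 and Tgfbr3, and the binding proteins Fst and Ltbp1. The genes were chosen by name and role, with earlier results of these data known, and each was matched by its symbol to 1 of the 56691 Ensembl identifiers in the count files, with the version number dropped. All 10 were among the 15673 genes tested, each of which had 10 counts or more in 3 or more libraries.

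TGF-beta ligands are secreted as inactive complexes with their propeptide and a latent TGF-beta binding protein, and must be released from these before they bind a type II receptor, which then activates the type I receptor. Activins are dimers of inhibin beta subunits that use their own receptors and share the intracellular Smad2 and Smad3 pathway with TGF-beta, and follistatin binds and neutralizes them. In the palate, Tgfb3 is made by the epithelium at the shelf edge and is needed for the shelves to fuse.

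Microdissected palatal shelves of C57BL/6J mice gave 3 anterior and 3 posterior libraries, and no other treatment or genotype was involved. The palate was cut along its length, so that the comparison asks which genes differ between its front and its back. The labels do not say how many embryos or litters went into a library, and p-values therefore measure the spread between these samples. In bulk tissue, fewer cells of a type and less RNA per cell cannot be told apart.

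Reads assigned to genes numbered between 11378736 and 15172733 per library, and 3 counts, the limit that a count of 0 allows, corresponded to 0.205 to 0.259 CPM (a count relative to the TMM-scaled library total). Posterior replicates 2 and 3 stood apart from the other 4 libraries. Mitochondrial genes took 0.973% and 1.137% of their counts, against 2.701% to 2.974% elsewhere, and multimapping reads 6.12% and 5.94% of all their reads, with 8.45% to 8.77% in the others. Because both libraries are posterior, this difference and the region cannot be told apart in them. The log2 fold changes of the 10 genes and of other genes called are therefore also given for posterior replicate 1 against the anterior libraries, an alternative chosen after the data were seen, and for the 10 genes also without posterior replicate 1. With 1 posterior library the spread comes from the anterior libraries alone, and the lone library is assumed to vary as they do, so its p-values hold no information on posterior spread. A fit with a term for these 2 groups of libraries (the library-group term) rests on the same library for the region. Among cell type markers, the 8 skeletal muscle markers were all higher in the posterior palate, with a summed level of 9.92 to 13.2 CPM in the anterior and 559 to 958 CPM in the posterior libraries. Myf5 and Myod1 did not exceed 3 counts in any anterior library. Of the chondrocyte markers, 2 of 4 tested were higher in the posterior palate, with sums of 128 to 171 and 515 to 657 CPM. The 5 osteoblast markers summed to 1955 to 3544 CPM in the anterior and 290.2 to 1813 CPM in the posterior palate, and 0 of 4 tested passed the test, with 3 of 4 called higher in the anterior palate by DESeq2 (12.6% of all genes called) and without posterior replicate 1 (46.4%), and 4 of 4 with the library-group term (7.61%) and with posterior replicate 1 alone (7.5%). Epithelial markers (1 of 8 called, higher in the anterior palate) summed to 1349 to 1476 and 946 to 1584 CPM, with the 2 lowest sums in posterior replicates 2 and 3. Endothelial markers (0 of 6 called) summed to 405 to 431 CPM in the anterior palate and to 359.6, 549 and 594 CPM in posterior replicates 1, 2 and 3, and 5 of 6 were called higher in the posterior palate without posterior replicate 1, in the fit that called 46.4% of all genes. Myeloid sums (0 of 6 called) were 95 to 107 and 99.1 to 102 CPM. The 6 palatal mesenchyme markers, the defining genes of the labelled tissue, were present in every library, at summed levels of 1669.9 to 1749 and 1387 to 1707 CPM, with 3 higher in the posterior and 1 in the anterior palate. The part of these cell types and of library quality in the results below was not tested.

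Tgfb2, Tgfbr2 and Ltbp1 were higher in the posterior palate, and Tgfb1 was higher in the anterior palate. The differences ran from 1.63-fold for Tgfbr2 to 2.52-fold for Tgfb2. The other 6 genes did not pass the test, Tgfb3 and Inhba included. Of the 10 genes, 4 were thus called at an adjusted p below 0.05 by edgeR's quasi-likelihood test, where 7.46% of all genes tested were called. In the posterior direction 3 were called, against 4.87% of all genes, and in the anterior direction 1, against 2.59%. The CPM of the regions did not overlap for 7 of the 10 genes, a pattern that 28.0% of all genes tested had. The median log2 fold change, posterior over anterior, was 0.47 over the 10 genes and 0.00 over all genes tested. By class, 2 of 3 TGF-beta ligands were called, 1 in each direction, with 0 of 2 activin subunits, 1 of 3 receptors and 1 of 2 binding proteins.

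**Figure D1:**
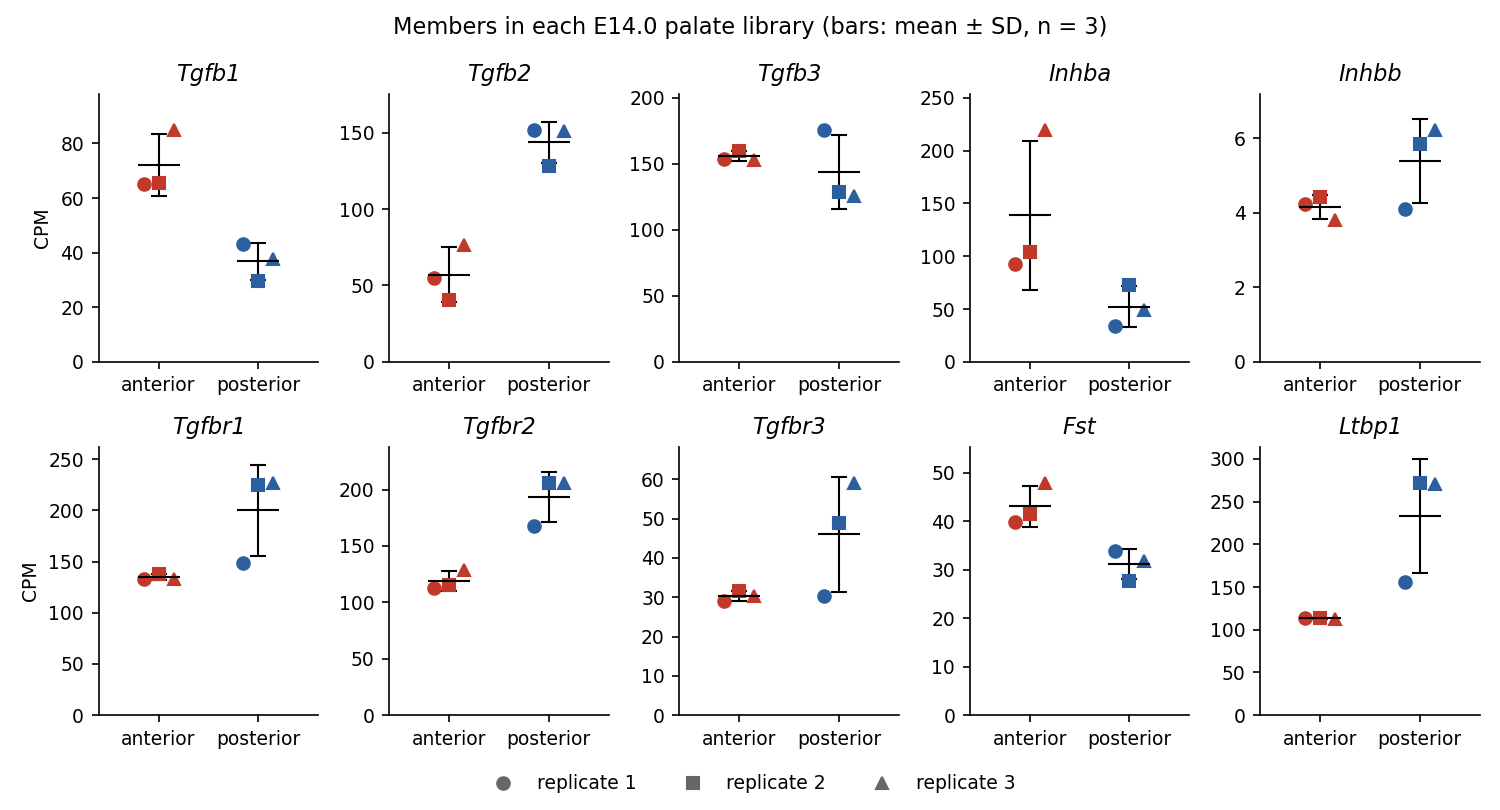
CPM of the 10 genes in each library, with anterior libraries in red, posterior libraries in blue, 1 symbol per replicate number, and the mean ± SD of 3 libraries in black; each vertical axis starts at 0 and has its own range. Tgfb1 lay between 65.3 and 85.1 CPM in the anterior and between 29.8 and 43.1 CPM in the posterior libraries, and Tgfb2 showed the opposite order, whereas the 2 regions overlapped for Tgfb3, Inhbb and Tgfbr3.

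Among the ligands, Tgfb1 and Tgfb2 differed between the regions in opposite directions. Tgfb1, the ligand best known for its action on immune cells and matrix (chr7:25687002-25705077, plus strand, GRCm38), measured 65.3, 65.6 and 85.1 CPM in anterior replicates 1, 2 and 3 and 43.1, 29.8 and 37.7 CPM in posterior replicates 1, 2 and 3. Every anterior library lay above every posterior one. Tgfb1 fell by 0.96 on the log2 scale from the anterior to the posterior palate (SE 0.17, a 1.95-fold difference, adjusted p = 0.0147). Against the anterior libraries, posterior replicate 1 alone gave a log2 fold change of -0.74 (adjusted p = 0.0393), and the libraries without it gave -1.08. The call was lost, with adjusted p between 0.0517 and 0.0559, when anterior replicate 3, posterior replicate 2 or posterior replicate 3 was left out, and at 0.0545 with a term for the library groups.

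Tgfb2, a ligand whose loss in mice causes cleft palate (chr1:186622792-186705989, minus strand), measured 54.8, 40.3 and 76.2 CPM in the anterior libraries and 152, 128 and 151 CPM in the posterior libraries. The lowest posterior value was well above the highest anterior one, and posterior replicate 1 was as high as posterior replicate 3. The log2 fold change was 1.33 (SE 0.22, 95% interval 0.82 to 1.84, adjusted p = 0.011), a 2.52-fold difference. It was 1.41 (adjusted p = 0.0191) with posterior replicate 1 alone and 1.30 without it. The adjusted p passed 0.05 when anterior replicate 1 was left out, at 0.0643.

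The stretches before the start sites of Tgfb1 and Tgfb2 are shown because these ligands of 1 family moved in opposite directions. The 250 bases before each start are given 5′ to 3′ on the gene's strand from RefSeq (GRCm38.p6), at chr7:25686752-25687001 on the plus strand and chr1:186705990-186706239 on the minus strand. Capitals mark matches, on either strand, to the GC box (GGGCGG), the CCAAT box (CCAAT), the TATA box (TATAAA), the E-box (CACGTG) and the cAMP response element (TGACGTCA), and no match overlapped another.
Tgfb1: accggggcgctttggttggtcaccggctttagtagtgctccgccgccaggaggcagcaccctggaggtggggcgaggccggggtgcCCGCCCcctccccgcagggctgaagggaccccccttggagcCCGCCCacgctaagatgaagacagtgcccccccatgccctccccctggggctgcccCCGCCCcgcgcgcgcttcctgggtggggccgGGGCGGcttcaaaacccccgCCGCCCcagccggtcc
Tgfb2: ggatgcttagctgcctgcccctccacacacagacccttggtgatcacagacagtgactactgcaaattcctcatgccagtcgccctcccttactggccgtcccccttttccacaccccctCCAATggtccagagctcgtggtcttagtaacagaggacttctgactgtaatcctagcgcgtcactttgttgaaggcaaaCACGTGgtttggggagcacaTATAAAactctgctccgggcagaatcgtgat

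The Tgfb1 stretch was GC-rich, with 75.2% G or C and 21 CG dinucleotides, and held 5 GC boxes, 4 of them on the reverse strand. The Tgfb2 stretch had 53.6% G or C and 8 CG dinucleotides, and held no GC box. It held a TATA box 31 bases before the start, an E-box 51 bases before it and a CCAAT box 130 bases before it. Among all 32851 RefSeq promoter stretches of this length, 32.7% held a GC box, 33.8% a CCAAT box, 12.4% a TATA box, 6.02% an E-box and 1.55% a cAMP response element. These matches describe letters and were not tested as binding sites.

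Tgfb3, the ligand required for palate fusion (chr12:86056745-86079041, minus strand), did not pass the test. It measured 154, 160.0 and 153 CPM in the anterior and 176, 129 and 126 CPM in the posterior libraries. The anterior values were close together, and the posterior values lay on both sides of them, with posterior replicate 1 highest and posterior replicates 2 and 3 lowest of all 6. Its log2 fold change was -0.11 (95% interval -0.44 to 0.21, adjusted p = 0.624). It was 0.18 with posterior replicate 1 alone (adjusted p = 0.198) and -0.28 without it (adjusted p = 0.00454), so that its sign and its call depended on that library. In GENCODE M21 a gene on the opposite strand overlaps the end of Tgfb3, and the counts used here keep the strands apart.

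The activin subunit Inhba, which forms activin A (chr13:16011851-16031621, plus strand), had the largest SE of the 10 genes. It measured 92.5, 104 and 220.0 CPM in the anterior and 34.3, 72.7 and 49.6 CPM in the posterior libraries. Each anterior library was above each posterior one, but anterior replicate 3 was more than 100 CPM above the other anterior libraries. The log2 fold change was -1.41 (SE 0.39, 95% interval -2.31 to -0.50), with an adjusted p of 0.075. Adjusted p ranged from 0.00142 with DESeq2, which called 12.6% of all genes, to 0.214 over the alternatives run, and the log2 fold change was -0.91 without anterior replicate 3. With posterior replicate 1 alone it was -2.01 (adjusted p = 0.0641), and without that library -1.17 (adjusted p = 0.0325). The study describes Inhba as an anterior gene, which it measured by quantitative RT-PCR of anterior and posterior shelves. Its in situ hybridization placed Inhba beneath the epithelium in the anterior and middle palate.

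Inhbb, the beta subunit of activin B (chr1:119415465-119422248, minus strand), was the lowest of the 10 genes. It measured 4.24, 4.43 and 3.8 CPM in the anterior and 4.11, 5.84 and 6.23 CPM in the posterior libraries, from 44 to 91 counts. Posterior replicate 1 lay within the anterior range. Inhbb had a log2 fold change of 0.38 (95% interval -0.13 to 0.88, adjusted p = 0.317), with -0.02 for posterior replicate 1 alone and 0.54 without it (adjusted p = 0.0372).

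The 3 receptors all had higher means in the posterior palate, and 1 of them passed the test. Tgfbr2, the type II receptor that binds the ligand first (chr9:116084293-116175360, minus strand), measured 113, 115 and 129 CPM in the anterior and 168, 206 and 206 CPM in the posterior libraries. All posterior libraries were above all anterior ones, with posterior replicate 1 nearest to them. Tgfbr2 was higher in the posterior palate by a log2 fold change of 0.70 (SE 0.12, adjusted p = 0.0112), a 1.63-fold difference. It was 0.50 with posterior replicate 1 alone (adjusted p = 0.0171) and 0.80 without it (adjusted p = 9.23e-05). The call was lost without anterior replicate 1 (adjusted p = 0.0754), anterior replicate 2 (0.0783) or posterior replicate 2 (0.0587).

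Tgfbr1, the type I receptor kinase that phosphorylates Smad2 and Smad3 (chr4:47353222-47414931, plus strand), measured 133, 138 and 133 CPM in the anterior and 149, 225 and 227 CPM in the posterior libraries. The regions did not overlap, but posterior replicate 1 was close to the anterior libraries and far from the other posterior ones. Tgfbr1 had a log2 fold change of 0.57 (SE 0.17, 95% interval 0.19 to 0.96, adjusted p = 0.0849). It was 0.14 with posterior replicate 1 alone (adjusted p = 0.306) and 0.75 without it (adjusted p = 3.79e-05).

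Tgfbr3, betaglycan, a coreceptor that presents TGF-beta2 to the signalling receptors and also binds inhibin (chr5:107106570-107289629, minus strand), measured 29.0, 31.6 and 30.4 CPM in the anterior and 30.2, 48.8 and 59.1 CPM in the posterior libraries. Posterior replicate 1 lay inside the anterior range, and the other posterior libraries lay above it. For Tgfbr3 the log2 fold change was 0.60 (SE 0.23, adjusted p = 0.153), and -0.01 with posterior replicate 1 alone against 0.84 without it (adjusted p = 0.000403).

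The 2 binding proteins had opposite signs. Ltbp1, which holds the latent TGF-beta complex in the matrix (chr17:75005568-75392512, plus strand), measured 114, 114 and 113 CPM in the anterior and 156, 272 and 271 CPM in the posterior libraries. The anterior libraries were almost equal, and all posterior libraries were above them, with posterior replicate 1 lowest. The log2 fold change was 1.04 (SE 0.21, 95% interval 0.56 to 1.51, adjusted p = 0.0244), a 2.05-fold difference. It was 0.46 with posterior replicate 1 alone (adjusted p = 0.00695) and 1.26 without it (adjusted p = 6.09e-06). Leaving out any library other than posterior replicate 1 ended the call, with adjusted p between 0.0798 and 0.111.

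Fst, which encodes follistatin, the activin-binding inhibitor (chr13:114452290-114458951, minus strand), measured 39.9, 41.4 and 47.9 CPM in the anterior and 33.8, 27.7 and 31.7 CPM in the posterior libraries. The regions did not overlap, yet the gap between them was smaller than the range within the anterior palate. The log2 fold change was -0.47 (SE 0.12, 95% interval -0.75 to -0.19, adjusted p = 0.0603). It was -0.35 with posterior replicate 1 alone and -0.53 without it (adjusted p = 0.00533).

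The same stretch before the start is shown for Tgfbr2 (chr9:116175364-116175613, minus strand) and for the first RefSeq start of Ltbp1 (chr17:75005279-75005528, plus strand), because a receptor and the protein that stores its ligand were both higher in the posterior palate. Capitals mark the motifs named above.
Tgfbr2: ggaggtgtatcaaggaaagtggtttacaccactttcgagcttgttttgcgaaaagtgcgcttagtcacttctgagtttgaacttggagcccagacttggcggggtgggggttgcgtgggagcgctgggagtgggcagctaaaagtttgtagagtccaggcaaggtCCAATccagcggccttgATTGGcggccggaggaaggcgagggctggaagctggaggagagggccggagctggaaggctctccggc
Ltbp1: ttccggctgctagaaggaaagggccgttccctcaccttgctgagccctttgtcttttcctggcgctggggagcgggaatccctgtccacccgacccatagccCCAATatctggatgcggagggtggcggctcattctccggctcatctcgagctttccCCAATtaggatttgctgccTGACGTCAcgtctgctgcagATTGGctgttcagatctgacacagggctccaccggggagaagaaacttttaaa

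The Tgfbr2 stretch held 2 CCAAT boxes, 85 bases before the start and, on the reverse strand, 68 bases before it. The Ltbp1 stretch held 3 CCAAT boxes, at 148, 92 and 53 bases before the start, and a cAMP response element at 73 bases. GC content was 58.4% for Tgfbr2 and 56.8% for Ltbp1, between the values for Tgfb2 and Tgfb1. Neither stretch held a TATA box, a GC box or an E-box. The stretch before the second RefSeq start of Ltbp1 (chr17:75178531-75178780) held none of the marked motifs and had 50.8% G or C. Counts per gene do not tell the starts apart.

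**Figure D2:**
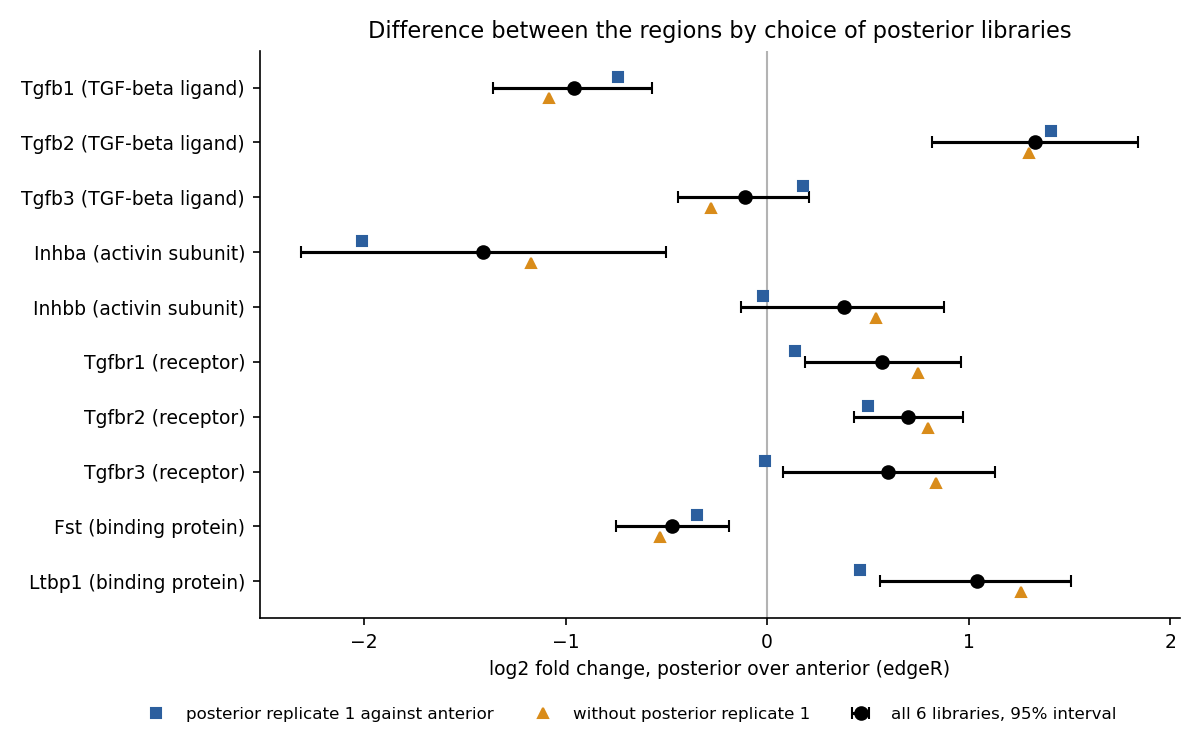
Log2 fold changes, posterior over anterior, of the 10 genes with all 6 libraries (black circles, bars for the 95% interval), with posterior replicate 1 against the anterior libraries (blue squares) and without posterior replicate 1 (orange triangles). Tgfb2 stayed between 1.30 and 1.41, whereas Tgfbr1, Tgfbr3, Inhbb and Tgfb3 were at 0.14, -0.01, -0.02 and 0.18 with posterior replicate 1 alone.

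Posterior replicate 1 followed the other posterior libraries to different degrees. For Tgfb2 its log2 ratio to the anterior mean was 1.41, beside 1.17 and 1.40 in posterior replicates 2 and 3. For Ltbp1 it was 0.46, beside 1.26 and 1.25, and for Tgfbr1 0.14, beside 0.74 and 0.76. With that library alone, in a fit without any posterior spread, 4 of the 10 genes were called (7.5% of all genes), and they were Tgfb1, Tgfb2, Tgfbr2 and Ltbp1. The median log2 fold change of the 10 genes was then 0.07. Without posterior replicate 1 all 10 were called, 6 higher in the posterior and 4 in the anterior palate, but in a fit that called 46.4% of all genes. With the term for the library groups 3 were called (7.61% of all genes), Tgfb1 being the gene lost.

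Levels were compared between genes as CPM per kb of exonic length. Tgfb3 was the highest of the 10 genes in both regions, at 46.0 ± 1.12 CPM per kb in the anterior and 42.6 ± 8.33 CPM per kb in the posterior palate (SD, n = 3), and its libraries did not overlap with those of the next gene. In the anterior palate Inhba followed by its mean, at 21.7 ± 11.1, and Tgfbr1 stood at 20.6 ± 0.438 CPM per kb. The range of Inhba, 14.5 to 34.4, overlapped those of Tgfbr1, Tgfbr2 and Tgfb1, so its place among them was not settled. Tgfbr2 at 14.5 and Tgfb1 at 14.3 CPM per kb could not be placed in order. Tgfb2 at 9.86, with a range of 6.97 to 13.2, overlapped Tgfb1 (12.9 to 16.9), Ltbp1 at 10.6 and Fst at 9.39 CPM per kb. Ltbp1 and Fst did not overlap each other. Tgfbr3 at 4.64 and Inhbb at 0.977 CPM per kb came last, each below the range of the gene before it.

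The order in the posterior palate was different. Behind Tgfb3 stood a group of overlapping neighbours formed by Tgfbr1 at 30.7 ± 6.87, Tgfb2 at 24.8 ± 2.28, Tgfbr2 at 23.6 ± 2.70 and Ltbp1 at 21.8 ± 6.22 CPM per kb. Below a gap came Inhba at 8.17 ± 3.03, Tgfb1 at 7.31 ± 1.33, Tgfbr3 at 7.03 ± 2.24 and Fst at 6.77 ± 0.668 CPM per kb, again overlapping from one to the next. Inhbb was last at 1.27 ± 0.265 CPM per kb. Tgfb2 thus stood among the genes near 10 CPM per kb in the anterior palate and among the overlapping group behind Tgfb3 in the posterior palate.

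**Figure D3:**
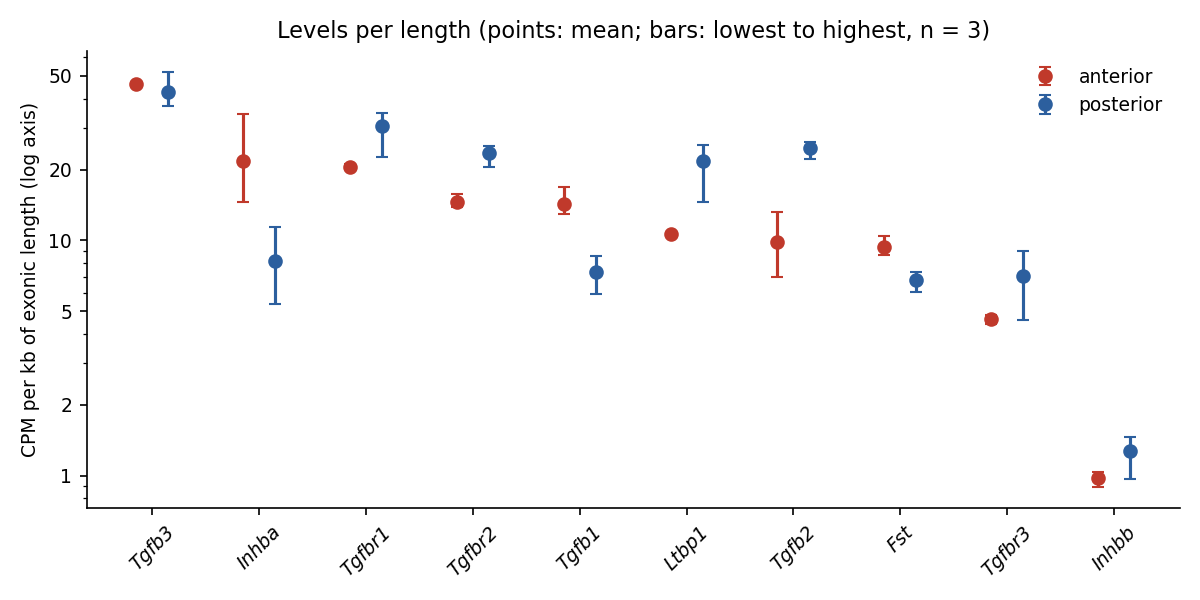
Level of each gene as CPM per kb of exonic length, on a log axis, in the anterior (red) and posterior (blue) palate, with points for the mean and bars from the lowest to the highest of 3 libraries; genes are ordered by their anterior mean. Tgfb3 is highest in both regions (46.0 and 42.6 CPM per kb) and Inhbb lowest (0.977 and 1.27 CPM per kb).

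Ratios within a library do not depend on the scaling between libraries. The log2 ratio of Tgfb3 to Tgfb2 per length was 2.27, 2.76 and 1.78 in the anterior and 0.99, 0.79 and 0.52 in the posterior libraries. Per length, Tgfb3 was the more abundant ligand in all 6 libraries, by a margin that was smaller in each posterior than in each anterior library. This order depends on the division by exonic length, 3383 bases for Tgfb3 and 5791 for Tgfb2. In counts, Tgfb3 and Tgfb2 were nearly equal in posterior replicate 2 (1797 and 1781). Tgfb2 was the higher in posterior replicate 3 (1842 for Tgfb3 and 2203 for Tgfb2). The mean difference was -1.50 on the log2 scale (2-sided exact permutation test, p = 0.1, the smallest p that 3 against 3 libraries allow). The log2 ratio of Inhba to Inhbb was 3.86, 3.96 and 5.27 in the anterior and 2.47, 3.05 and 2.41 in the posterior libraries, a difference of -1.72 without overlap (exact permutation test, p = 0.1). The log2 ratio of Inhba to its inhibitor gene Fst was 0.74, 0.84 and 1.72 in the anterior and -0.46, 0.91 and 0.17 in the posterior libraries. Posterior replicate 2 lay within the anterior range, and the difference was -0.89, with SDs of 0.54 and 0.68 (exact permutation test, p = 0.3). Posterior replicate 1 was the only library with less Inhba than Fst per length.

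**Figure D4:**
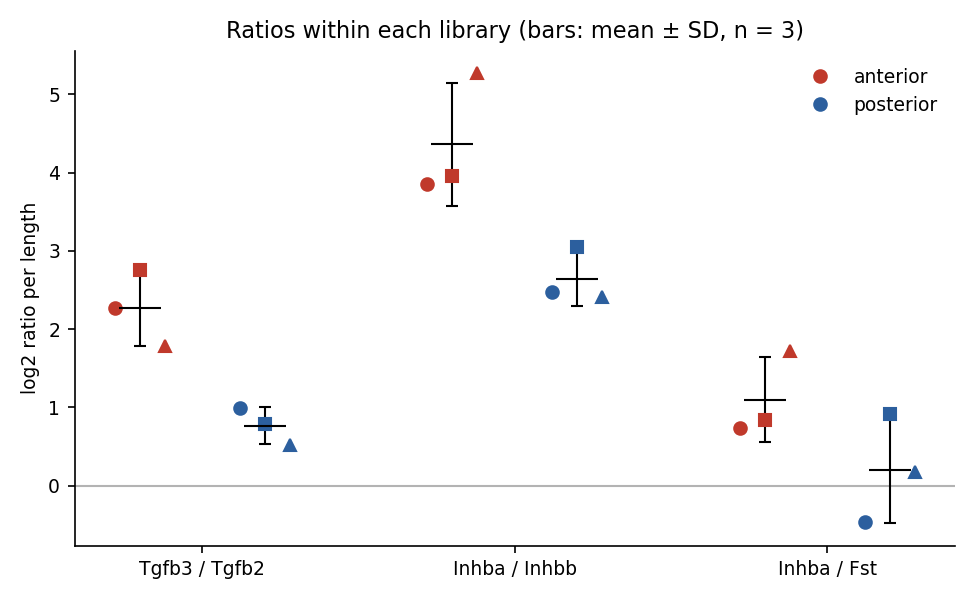
Log2 ratio per exonic length of Tgfb3 to Tgfb2, Inhba to Inhbb and Inhba to Fst in each library (red anterior, blue posterior, circles, squares and triangles for replicates 1, 2 and 3), with the mean ± SD of 3 libraries in black. The regions are apart for the first pair (means 2.27 and 0.77) and the second (4.36 and 2.64), and overlap for the third.

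The other genes of the pathway were followed in 5 lists by role, 60 genes in all, of which 51 were tested. Of these 14 passed the test, 12 higher in the posterior and 2 in the anterior palate, with a median log2 fold change of 0.27. Over all genes tested, 7.46% were called, 4.87% higher in the posterior and 2.59% higher in the anterior palate, with a median of 0.00. The called genes in the posterior palate lay mainly among the genes of latency and activation and among the response genes, with 5 each. With the term for the library groups 14 were called, without Acvrl1 (adjusted p = 0.087) and Emilin1 (0.137) and with Lrrc32 (0.0114) and Pmepa1 (0.00179), of which Emilin1, Lrrc32 and Pmepa1 were named after their values were seen. With posterior replicate 1 alone 16 were called, 11 higher in the posterior and 5 in the anterior palate, where 7.5% of all genes were called (564 and 566), while counts without 1 library ran from 5, without anterior replicate 2, to 34, without posterior replicate 1, where 46.4% of all genes were called. Fbn2, Itgb6, Tgfbi, Postn and Acta2 were called under all 16 alternatives, and each of the other called genes lost it under some of them.

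Of 8 other ligands of the activin and TGF-beta branch, 2 were tested and 0 were called at an adjusted p below 0.05 by edgeR, and also 0 by DESeq2. Gdf11, a ligand that patterns the axial skeleton, was the most abundant, at 33.7 ± 0.684 CPM in the anterior and 37.5 ± 0.939 CPM in the posterior palate (SD, n = 3), with an adjusted p of 0.311. Mstn, myostatin, a ligand of skeletal muscle that was picked out after its values were seen, had 3, 2 and 0 counts in the anterior and 8, 86 and 88 counts in the posterior libraries and was below the count minimum. The other ligands not tested, among them Nodal, Inhbc and Inhbe, were at or below 3 counts in these libraries.

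Among 9 other receptors and coreceptors, 6 were tested and 3 were called, against 7.46% of all genes. Acvr2a, a type II receptor for activins, measured 45.6, 42.8 and 43.2 CPM in the anterior and 57.2, 80.4 and 81.4 CPM in the posterior libraries, a log2 fold change of 0.74 (SE 0.15, adjusted p = 0.0248). Acvrl1, an endothelial type I receptor, was also higher in the posterior palate (log2 fold change 0.58, SE 0.13, adjusted p = 0.0384), and posterior replicate 1 alone gave 0.38 for Acvr2a (adjusted p = 0.0538) and 0.52 for Acvrl1 (adjusted p = 0.0919). Bambi, a decoy receptor that lacks a kinase domain, had the opposite direction, with 49.4, 49.8 and 40.0 CPM in the anterior and 18.9, 22 and 29.7 CPM in the posterior libraries. It fell by 0.98 on the log2 scale toward the posterior palate (SE 0.18, adjusted p = 0.0191), and posterior replicate 1 alone gave a log2 fold change of -1.30. Eng, the endoglin coreceptor of endothelial cells, had the highest mean of the list over the 6 libraries, at 60.7 ± 8.52 and 58.1 ± 4.59 CPM, with an adjusted p of 0.765.

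Of the 15 genes of latency, activation and binding, 5 were called, all higher in the posterior palate, where 4.87% of all genes were called in that direction, with a list median of 0.63. Fbn2, a microfibril protein to which latent complexes attach, had the highest mean of the list over the 6 libraries but was below Bgn in the anterior palate. It measured 429, 427 and 499.9 CPM in the anterior and 844, 1218 and 1409 CPM in the posterior libraries (log2 fold change 1.36, SE 0.19, adjusted p = 0.00613). Ltbp2, a relative of Ltbp1 that is not known to bind latent TGF-beta, measured 10.7, 6.09 and 3.89 CPM in the anterior and 29.2, 106 and 76.1 CPM in the posterior libraries (log2 fold change 3.35, SE 0.53, adjusted p = 0.00981). Itgb6, an epithelial integrin subunit that releases active ligand, went from 1.96 ± 0.386 to 6.16 ± 0.244 CPM (log2 fold change 1.65, adjusted p = 0.00475), and posterior replicate 1 alone gave 1.63. Thbs1, thrombospondin 1, an activator of latent TGF-beta, had a log2 fold change of 1.33 (SE 0.22, adjusted p = 0.0105). Emilin1, an inhibitor of TGF-beta processing, had a log2 fold change of 0.68 (adjusted p = 0.0436) and was called under 8 of the 16 alternatives, not with posterior replicate 1 alone (0.36, adjusted p = 0.0925). With that library alone the log2 fold changes were also smaller for Fbn2 (0.90), Ltbp2 (2.07) and Thbs1 (0.75). Ltbp4 and Itgav, which were not called and are named after their values were seen, turned there from 0.32 and 0.63 to -0.37 and -0.24.

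Of 14 genes of the Smad cascade and its regulators, which carry the signal inside the cell, 1 was called, or 7.14%, a share close to the 7.46% of all genes, with a list median of 0.15. It was Smad6, an inhibitory Smad best known for its action on BMP signals, with 35.1, 36.0 and 29.0 CPM in the anterior and 19.1, 21.5 and 18.8 CPM in the posterior libraries. Smad6 fell by 0.76 on the log2 scale (SE 0.13, adjusted p = 0.0123), and posterior replicate 1 alone gave a log2 fold change of -0.81. Ski, a nuclear repressor of Smad activity and the most abundant of the list, measured 279 ± 9.97 and 286 ± 24.8 CPM (adjusted p = 0.832).

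Of 14 response genes, which TGF-beta is known to induce in many cells, 5 were called, all higher in the posterior palate, where 4.87% of all genes were called in that direction, with a list median of 0.57. Tgfbi, a matrix protein named for its induction by TGF-beta, had the smallest adjusted p. It measured 60.9, 74.7 and 75.8 CPM in the anterior and 290.2, 255 and 303 CPM in the posterior libraries. All 3 posterior libraries were alike, and the log2 fold change was 2.00 (SE 0.12, adjusted p = 0.000194), and 2.04 with posterior replicate 1 alone. Postn, periostin, a matrix protein of mesenchyme, measured 1053 ± 133 and 3299 ± 937 CPM (log2 fold change 1.65, adjusted p = 0.0053). The smooth muscle genes Acta2 and Tagln had log2 fold changes of 1.24 (adjusted p = 0.00475) and 1.66 (adjusted p = 0.0205), and Cdkn2b, a cell cycle inhibitor named after its values were seen, one of 2.31 (adjusted p = 0.0243). Posterior replicate 1 alone gave 1.15 for Postn, 1.48 for Acta2, 2.20 for Tagln and 2.89 for Cdkn2b. Fn1 and Eln, both named after their values were seen, had the opposite direction with that library alone, at -0.41 and -0.31. Col1a1, the collagen gene with the highest level of the list, was at 4393 ± 617 and 7876 ± 1812 CPM, with an adjusted p of 0.0503. The muscle and chondrocyte markers given above were higher in the same 3 libraries as these genes.

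**Figure D5:**
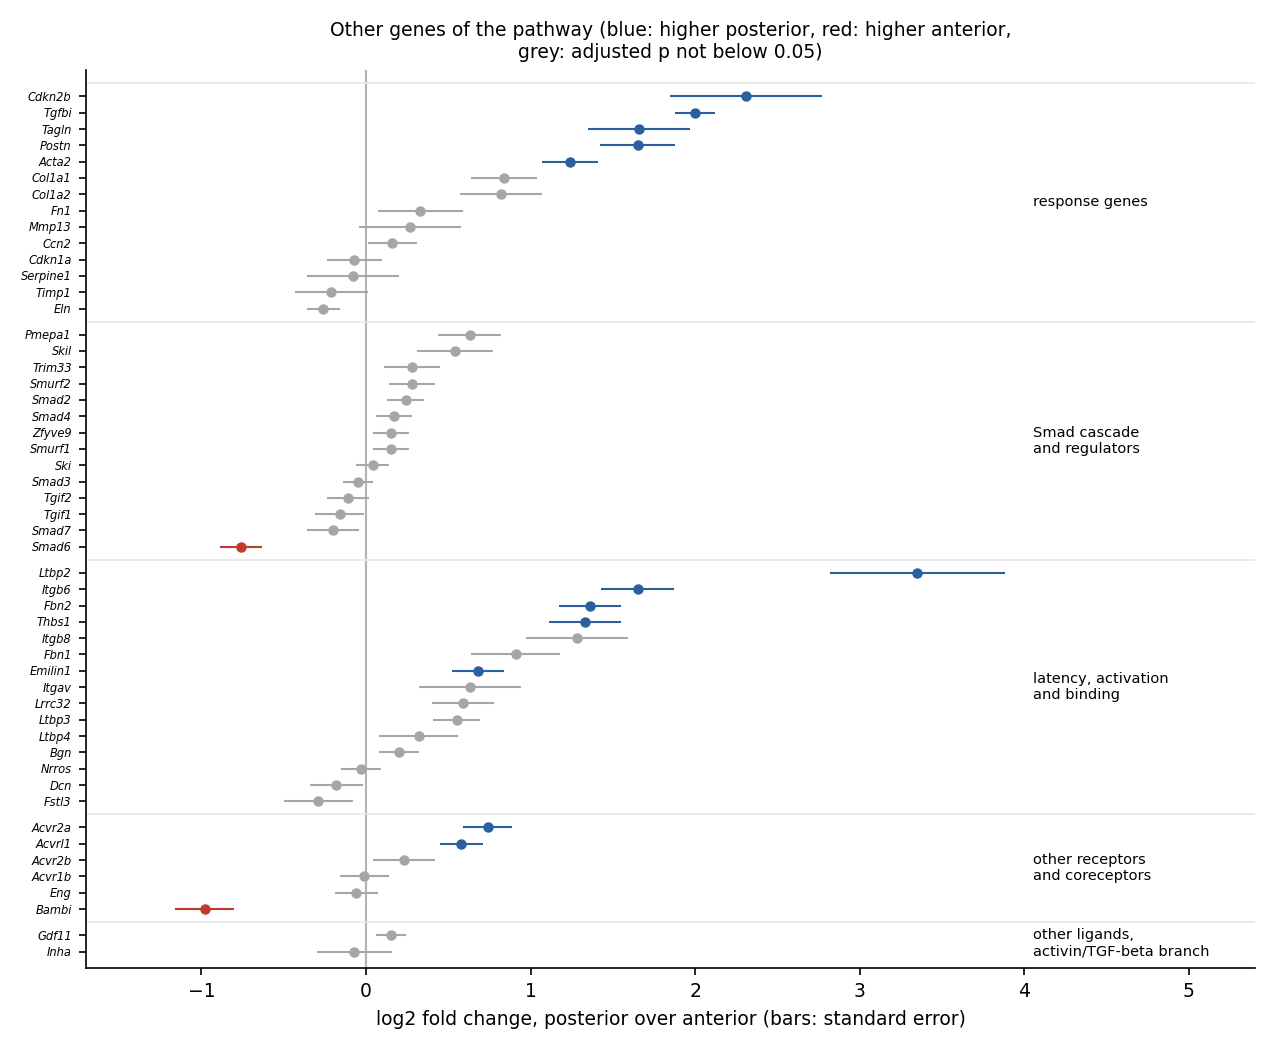
Log2 fold changes, posterior over anterior, of the 51 tested genes of the pathway lists, with bars for the standard error, in blue where called higher in the posterior palate, in red where called higher in the anterior palate and in grey otherwise. Blue points are found among latency, activation and binding genes, response genes and receptors, and the red points are Bambi and Smad6.

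For each of the 4 called genes, the 3 genes tested with the most similar pattern over the 6 libraries were found by the root-mean-square difference of centred log2(CPM + 0.5). For Tgfb2 they were Rspo3 (0.065), Lrrc3b (0.124) and Kctd16 (0.165 log2 units), of which Kctd16 was at most at 1.49 CPM. Rspo3, a secreted enhancer of Wnt signals, measured 22.3, 17.2 and 33.4 CPM in the anterior and 66.6, 59.0 and 60.6 CPM in the posterior libraries, with the same rank order of the anterior libraries as Tgfb2. For Tgfbr2 they included Drp2 (0.042) and Synj2 (0.055), and for Ltbp1 they were Svil (0.055), Pkia (0.060) and Zdbf2 (0.065 log2 units). The nearest to Tgfb1 were Gm38115 (0.062), Pced1b (0.078) and Mical2 (0.092 log2 units), of which Gm38115 was at most at 1.30 CPM.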

How the data were processed

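RNA was measured in 3 anterior and 3 posterior palate libraries, grouped by their labels. As deposited by the authors, the values are raw counts per Ensembl gene, unstranded and for each strand, without normalization. The submitters' notes name HISAT2, StringTie, DESeq2 1.30.1 and mm10, whereas the files are laid out as STAR writes them. The version of the annotation is not given in the sources used here. Reverse-stranded counts, 18.95 to 23.08 times those of the other strand, were used. Rows that name no gene stayed out of library sizes and tests, and held, in multimapping reads, 5.94% to 8.77% of reads. Counting error sets the limits given for counts of 0.

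The test was edgeR's (4.0.16, R 4.3.3), on genes reaching 10 counts in 3 or more libraries (TMM, quasi-likelihood test, Benjamini-Hochberg adjustment over all genes, threshold 0.05), with region as the only term. The SE is the log2 fold change divided by the root of the F statistic. The script was tested on simulated data. Alternatives were library size only, RLE normalization, DESeq2 1.42.0, other count filters, unstranded counts, a block for the replicate number, a term for the library groups parted by multimapping share, a lowess length correction (span 0.3), leaving out each replicate and, added after the data were seen, posterior replicate 1 alone. Symbols, positions and exonic lengths came from GENCODE M21 (GRCm38), with 52073 identifiers paired, 35 of them with the same version. RefSeq promoters were found for 7 of the 10 genes.

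The genes and lists were chosen with earlier results of these data known. Genes named from the pathway lists were the called ones, at most 4 per direction by adjusted p, and the most abundant of each list. The 3 most similar genes were named for each called gene, except 1 that is not reported here. Cell type markers were given as counts and summed CPM.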

Additional observations from a re-analysis of the deposited data

How the results depend on the processing

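Of the 10 genes, 7 were called with DESeq2 and 7 without a low-count filter, the same 7 genes in both, which added Inhba, Tgfbr1 and Fst to the 4, where 12.6% of the genes tested were called in either. The length correction called 6 (8.74% of all genes), library size only 5 (7.45%), and the library-group term 3 (7.61%). RLE normalization (7.46% of all genes), the unstranded counts (7.24%) and a minimum of 10 counts in every library (6.01%) each called the same 4 genes. Leaving out 1 library gave 1 (without anterior replicate 1 or posterior replicate 2) to 10 called genes (without posterior replicate 1), as 3.23% to 46.4% of all genes were called. Of the pathway genes, 22 were called without the low-count filter, Mstn among them, and 5 to 34 when 1 library was left out. With the library-group term, the log2 fold change turned to 0.18 for Tgfb3, to -0.018 for Inhbb and to -0.0079 for Tgfbr3, and with posterior replicate 1 alone to 0.18, -0.02 and -0.0092, none of which passed the test. The cause was not tested. Over all alternatives, the log2 fold changes kept their sign for the other 7 genes, with Tgfb2 between 1.13 and 1.59 and Tgfbr2 between 0.50 and 0.80. The ratio differences kept their sign with unstranded counts and without any 1 library, at -1.75 to -1.26 for Tgfb3 to Tgfb2, -1.97 to -1.27 for Inhba to Inhbb and -1.24 to -0.56 for Inhba to Fst.

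Same-numbered libraries of the regions share only a number: their deviations correlated at -0.053, 0.045 and 0.036. With the replicate block, 4 of the 10 genes were called, the same 4, and 13 pathway genes, against 5.29% of all genes. Inhbb rested on 44 to 91 counts per library.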
